A study of Mus musculus with 6 samples.

Results

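The metalloproteinases, ADAM proteases and their inhibitors were examined in resident macrophages of the mouse peritoneal cavity with and without the transcription factor gene Gata6. Members were all probe sets with a single annotated gene symbol that reads Mmp, Adam, Adamts, Adamtsl or Timp followed by a digit, which gave 124 of 45101 probe sets, for 70 genes. Each group was made of 3 arrays. The Gata6-KO arrays came from macrophages of floxed mice with conditional Gata6 deficiency, and the Gata6-WT arrays from macrophages of wild type mice. Both groups were 7 weeks old and sex-matched, and each array was hybridised with total RNA of cells that had been pooled from 2 to 3 mice and sorted by strong CD11b and weak or absent MHCII staining. No source used here gives the Cre line, the cells it acts in or which exons were removed. The labels call the arrays of a group biological replicates, and p-values measure the spread between these pools. A signal below is the MAS5 intensity of a probe set on a linear scale.

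The enzymes of these families hold a zinc ion in the active site. MMPs are secreted or membrane-bound enzymes that cut collagens, elastin and other matrix proteins, and are made as inactive precursors. Most ADAM proteases sit in the cell membrane and release the outer part of neighbouring membrane proteins such as cytokines, growth factors and adhesion molecules, although several ADAM genes are expressed mainly in the testis. ADAMTS proteases are secreted and cut proteoglycans and procollagens, ADAMTSL proteins resemble them but lack the protease domain, and TIMPs are secreted inhibitors that bind the active site of MMPs and of some ADAM proteases. In macrophages, ADAM17 is known for release of TNF, and MMP12 is known as macrophage elastase.

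The families divided into a small set with a clear signal and a larger one near background. Promoter sequences of some genes of both sets are shown first, and their part in the results was not tested. RefSeq promoter windows of build GRCm38.p6, from 250 bases before to 50 bases after a start site, were found for 41 of the 70 genes in 46 windows. The motif TGANTCA, with any base at N, was searched on both strands, where it reads the same. It covers TGACTCA and TGAGTCA, the recognition sequence of the AP-1 factors, known from promoters of the MMP genes. As searched, the motif is wider than that sequence and also takes in TGAATCA, the form in the Mmp20 stretch below. It was in 11 of the 46 windows (23.9%) and in 7.81% of all 32851 windows. The motif's 11 windows were all of genes near background on the arrays, and 8 of them were of neighbouring genes in 1 cluster. The 16 windows of tested members held 0, and only 16 of the 30 tested genes had a window. With a share of 7.81% over all windows, 0 among 16 windows is near that background. In the gene cluster on chromosome 9 that holds Mmp7, Mmp20, Mmp8, Mmp10, Mmp1a, Mmp3, Mmp1b, Mmp12 and Mmp13, 8 of the 9 genes had the motif, at positions -95 to -35 relative to the start site. These stretches are printed 5′ to 3′ in the direction of the gene, with the motif in capitals.
Mmp7, chr9:7692016-7692045, + strand: aagtgtgcaaaTGAGTCAcctatttccaca
Mmp20, chr9:7628125-7628154, + strand: catttgagacaTGAATCAtcacttacaggg
Mmp10, chr9:7502268-7502297, + strand: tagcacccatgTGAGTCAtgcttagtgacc
Mmp1a, chr9:7464057-7464086, + strand: gttgtcaaccaTGAGTCAcatagcctctgg
Mmp3, chr9:7445765-7445794, + strand: ggaagcaattaTGAGTCAgttttcgggtga
Mmp1b, chr9:7388101-7388130, - strand: gttacaaagccTGAGTCAtatagcctctgg
Mmp12, chr9:7347319-7347348, + strand: gacatcaacagTGAGTCAgatagaggattt
Mmp13, chr9:7272468-7272497, + strand: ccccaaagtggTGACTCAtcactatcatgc

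GATA motifs, the letters GATA after A or T and before A or G, were searched on both strands and were in 9 of the 46 member windows (19.6%) and in 29.8% of all windows. In the Mmp12 stretch above such a match shared 1 base with the TGANTCA match, and in the Mmp13 stretch it lay beside it. Of the genes with a changed probe set, Adam8, Adam10, Adam17 and Timp2 had a window, and none of these 4 windows held either motif. The windows of Adam8, the gene that was lower in Gata6-KO, and of Adam17 and Timp2, which had probe sets higher in Gata6-KO, are printed for comparison, with the 50 bases from the start site on in capitals. The Adam8 window had a GC content of 52.3%, against 70% for Adam17 and 68.7% for Timp2, with a median of 52.7% over all windows.
Adam8, chr7:139992513-139992812, - strand: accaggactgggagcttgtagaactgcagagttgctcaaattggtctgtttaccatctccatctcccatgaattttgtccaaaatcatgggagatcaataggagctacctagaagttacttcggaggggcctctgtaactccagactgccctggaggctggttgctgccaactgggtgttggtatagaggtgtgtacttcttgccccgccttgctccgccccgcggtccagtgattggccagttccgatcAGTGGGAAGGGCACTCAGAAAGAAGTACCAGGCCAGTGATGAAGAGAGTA
Adam17, chr12:21373583-21373882, - strand: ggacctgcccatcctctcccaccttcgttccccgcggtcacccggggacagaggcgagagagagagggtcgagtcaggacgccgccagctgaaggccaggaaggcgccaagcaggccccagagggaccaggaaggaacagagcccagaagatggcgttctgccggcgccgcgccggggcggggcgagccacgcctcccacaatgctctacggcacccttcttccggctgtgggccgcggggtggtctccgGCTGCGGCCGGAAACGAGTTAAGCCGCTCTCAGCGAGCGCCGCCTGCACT
Timp2, chr11:118355362-118355661, - strand: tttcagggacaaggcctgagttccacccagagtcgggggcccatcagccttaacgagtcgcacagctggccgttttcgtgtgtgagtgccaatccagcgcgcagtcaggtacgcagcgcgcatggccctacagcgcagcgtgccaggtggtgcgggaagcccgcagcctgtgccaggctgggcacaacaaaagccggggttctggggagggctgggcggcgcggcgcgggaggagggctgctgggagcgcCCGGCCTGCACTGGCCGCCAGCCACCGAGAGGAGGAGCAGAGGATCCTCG

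The targeted gene was checked before the members. Gata6 had 3 probe sets, and the brightest had 3497 ± 828 in Gata6-KO against 6372 ± 938 in Gata6-WT arrays (SD, n = 3; log2 -0.88, limma adjusted p = 0.011), another had 180 ± 6.47 against 423 ± 76.6 (adjusted p = 0.0043), and the remaining one had 1758 ± 399 against 1775 ± 443 (adjusted p = 0.98). Transcript of Gata6 was therefore still detected in the Gata6-KO arrays, and the position of each probe set relative to the deletion is not known here. Of 7 defining markers of resident peritoneal macrophages all were tested: Adgre1, Timd4 and Icam2 fell, Mertk rose, and Itgam, Csf1r and Cd14 did not pass the threshold. In both genotypes replicate 1 carried male-type and replicates 2 and 3 female-type expression of the sex-linked genes Xist and Eif2s3y, so differences within each type are given for some members. The ratio of the 3′ to the 5′ control probe set of Actb was 1.38 to 1.43 in Gata6-KO and 1.43 to 1.5 in Gata6-WT arrays. That of Gapdh was 0.697 to 0.722 in Gata6-KO and 0.742 to 0.778 in Gata6-WT arrays, without overlap, and its part in the results was not tested. Medians of the arrays lay between 79.7 and 88.5.

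A probe set was tested when its mean log2(signal + 16) over all 6 arrays exceeded the 40th percentile of all probe sets, which corresponds to a signal of 47.5. Of the 124 member probe sets 48 passed, for 30 genes, and 76 did not. A mean signal of 200 or more over the 6 arrays was counted as clear, which held for 22 probe sets, and 26 tested probe sets were low. By the probe set with the highest mean, 10 genes were clear, 20 low and 40 near background. The clear genes were Mmp9, Adam8, Adam9, Adam10, Adam15, Adam17, Adamts10, Adamts16, Adamtsl5 and Timp2. The last members under the filter were probe sets of Adamtsl2 (46.5 in Gata6-KO, 60 in Gata6-WT) and Adamts10 (69.8 and 28.6), and the first above it were Adamts15 (65.2 and 41.1) and Adam1a (52.8 and 49.8). Around a signal of 200 stood Adamtsl4 (mean of 6 arrays 181) and an Adam15 probe set (193) below, and probe sets of Adamtsl5 (202) and Adam10 (208) above. Of the 48 tested probe sets 3 had a Gata6-KO mean and 6 a Gata6-WT mean at or under the filter, and none of these 9 was past the threshold. Probe sets differ in how strongly they bind their target, so the classes describe signals and do not rank genes against each other.

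**Figure D1:**
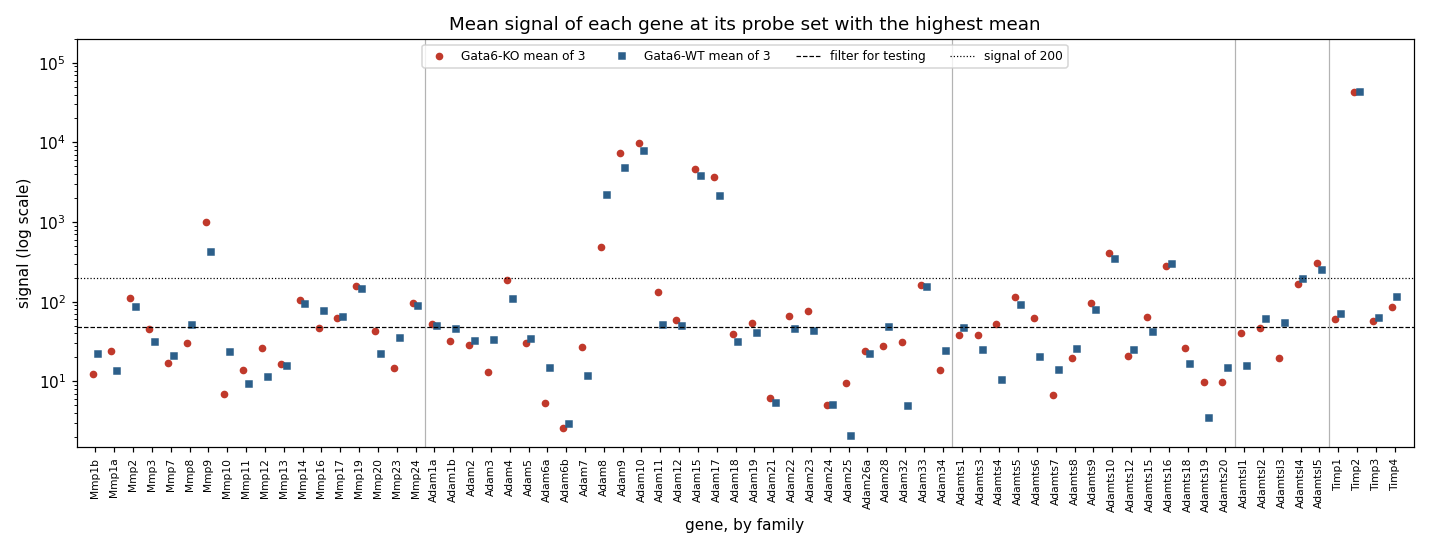
Mean signal of each of the 70 genes at its probe set with the highest mean (y axis, log scale), grouped by family along the x axis, with Gata6-KO circles left of Gata6-WT squares, each the mean of 3 arrays. The dashed line is the filter at a signal of 47.5 and the dotted line a signal of 200. Of the MMP genes, Mmp9 alone stands above 200 in the mean of all arrays, while Adam8, Adam9, Adam10, Adam15, Adam17 and Timp2 stand far above it.

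The MMP and ADAMTS genes known for matrix breakdown were mostly near background in both genotypes. Of 18 MMP genes 11 were not tested, and of 15 ADAMTS genes 10 were not tested. All 9 measured genes of the chromosome 9 cluster were among them, with mean signals over the 6 arrays of 15.1 to 40.6. Mmp12, macrophage elastase, had 7.41, 46 and 25.1 in Gata6-KO replicates 1, 2 and 3, against 23.3, 3.18 and 7.24 in Gata6-WT. Mmp13, a collagenase, had 23.2, 2.19 and 23.5 in Gata6-KO, against 43.2, 2.41 and 1.03 in Gata6-WT. Mmp8, the collagenase of neutrophil granules, had 30.5, 21.7 and 39.3 in Gata6-KO and 56.9, 16.2 and 78.8 in Gata6-WT. The groups of all 3 genes overlapped, with values that scattered as much within a genotype as between genotypes, and an expression level could not be told from background for any of them. Of 28 ADAM genes 16 were near background as well, among them Adam2, Adam3, Adam5 and Adam18, which are known from sperm. In a cluster on chromosome 8 that holds Adam18, Adam3, Adam5, Adam32 and Adam9, the first 4 were near background and Adam9 was clear. Adam28 (27.6 ± 19 in Gata6-KO, 47.8 ± 10.4 in Gata6-WT), Adam19 (54.4 ± 31.9 and 40.5 ± 36.6) and the proteoglycan-cleaving Adamts1 (38.2 ± 29.8 and 47.2 ± 5.39, SD, n = 3) were also not tested. Of the 76 member probe sets under the filter 6 had groups that did not overlap (7.89%), 4 higher and 2 lower in Gata6-KO, against 12.2% of all probe sets under the filter. The higher ones were of Adamts4, Adamts5, Adamts6 and Adamts10, and the lower ones of Adam33 and Adamts6, and no test was made of these.

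Adam17 and Adam9 were higher and Adam8 lower in Gata6-KO macrophages, and probe sets of Mmp9, Timp2 and Adam10 rose in part. Differences were tested with limma over all 27022 probe sets that passed the filter, and called at a Benjamini-Hochberg adjusted p under 0.05. Of the 48 tested member probe sets 9 rose, 1 fell and 38 were not called, where 5.12% of all tested probe sets were higher and 5.67% lower. All 10 were among the 22 with a clear signal, and 0 of the 26 low probe sets were called (2 of these had an unadjusted p under 0.05, those of Adam11 and Adam4). Over all tested probe sets, 8.04% of those with a clear signal were higher and 8.59% lower, and 1.23% of the low ones were higher and 1.77% lower, so that no call among 26 low probe sets is near that background. With each gene represented by its probe set of highest mean, 3 of 30 genes were higher and 1 lower, where 5.61% and 7.46% of all 12511 genes were. Groups did not overlap in 16 member probe sets, 15 of them higher in Gata6-KO, against 31% of all probe sets tested. The median log2 difference of the 48 probe sets was 0.28, and that of all tested probe sets -0.01. An exact permutation test of 3 against 3 arrays has a smallest two-sided p of 0.1, which every non-overlapping probe set reached. In bulk samples a change in RNA per cell and a change in the share of cells that express a gene cannot be told apart.

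**Figure D2:**
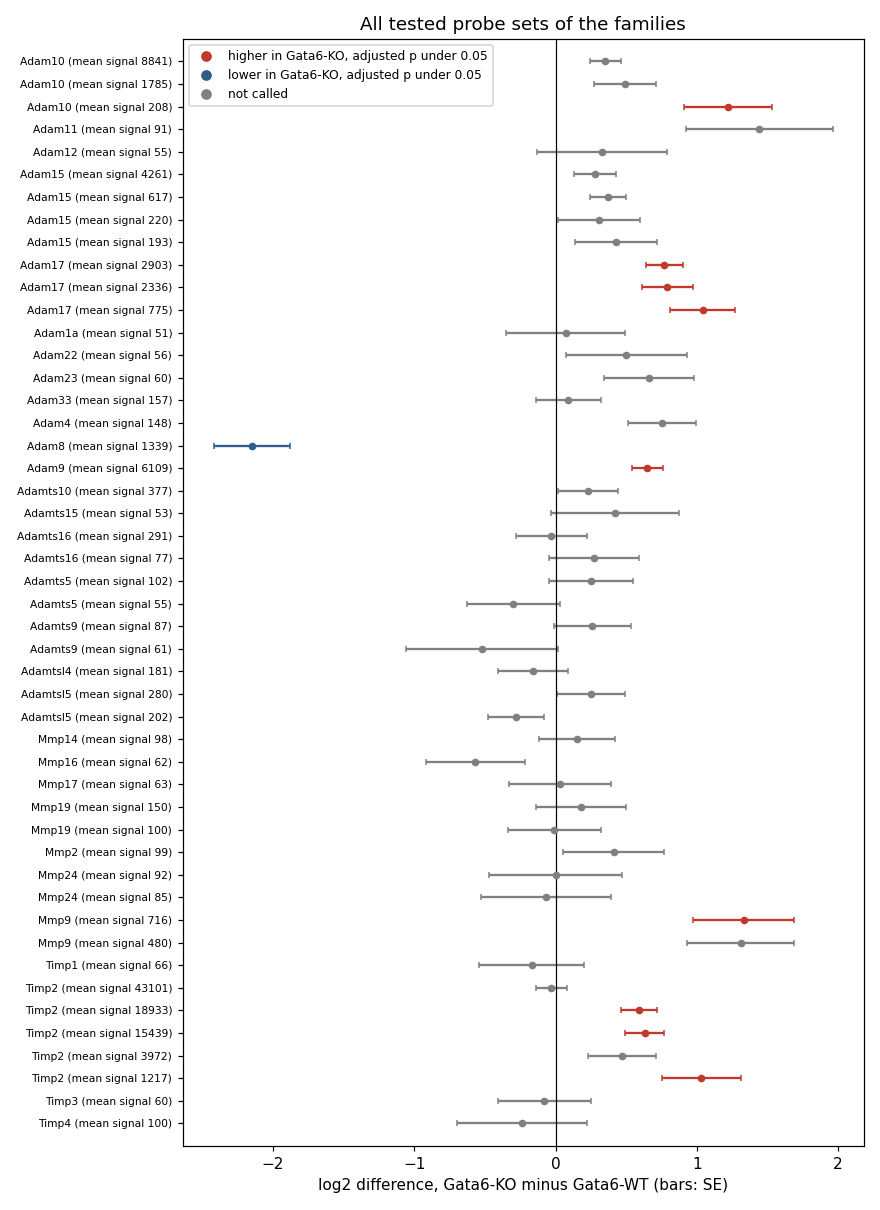
Log2 difference of Gata6-KO minus Gata6-WT with its SE (x axis) for all 48 tested probe sets, 1 row per probe set with its mean signal over 6 arrays. The 3 Adam17 probe sets, Adam9, 1 of 3 of Adam10, 1 of 2 of Mmp9 and 3 of 5 of Timp2 lie to the right of 0 and are called, and Adam8 is the called probe set on the left at -2.15.

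Adam17, the sheddase that releases TNF and ligands of the EGF receptor, rose at all 3 of its probe sets. The brightest had signals of 3897, 3304 and 3769 in Gata6-KO replicates 1, 2 and 3 and 2363, 2266 and 1819 in Gata6-WT, so that every Gata6-KO array lay above every Gata6-WT array. The log2 difference was 0.77 ± 0.13 (SE, n = 3 per group), a 1.7-fold change with a limma adjusted p of 0.0055. It was 0.79 within the female-type and 0.72 within the male-type arrays, and 0.65 to 0.84 with 1 array left out, called each time. The next brightest had 3303, 2440 and 3131 in Gata6-KO and 2069, 1759 and 1316 in Gata6-WT (log2 0.79, adjusted p = 0.021). The faintest had 1147, 823 and 1152 in Gata6-KO and 665, 511 and 352 in Gata6-WT (log2 1.04, adjusted p = 0.02). At each of the 3 probe sets replicate 2 was lowest in Gata6-KO and replicate 3 lowest in Gata6-WT. These last 2 calls each needed 3 of the arrays. When replicate 1 of Gata6-KO was left out, the adjusted p was 0.077 for the next brightest and 0.068 for the faintest probe set, with replicate 3 of Gata6-KO left out it was 0.075 and 0.074, and with replicate 2 of Gata6-WT left out it was 0.059 and 0.056.

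Adam9, which can act as a sheddase and binds integrins, rose at its 1 tested probe set. Its signals were 6739, 7608 and 8066 in Gata6-KO replicates 1, 2 and 3, against 4861, 4937 and 4443 in Gata6-WT. The groups did not overlap and the Gata6-WT arrays spread little. The log2 difference was 0.65 ± 0.11 (SE, n = 3 per group; 1.57-fold, limma adjusted p = 0.0049), with 0.74 in the female-type and 0.47 in the male-type arrays. Adam9 was called in all 17 alternative fits, with log2 differences of 0.59 to 0.74.

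Adam10, which cuts Notch receptors, cadherins and the CX3CL1 precursor, had differences of the same sign at its 3 tested probe sets, of which 1 passed. The probe set of highest mean had 9444, 9669 and 10632 in Gata6-KO and 8450, 7800 and 7049 in Gata6-WT, without overlap (log2 0.35 ± 0.11, limma adjusted p = 0.069). At the next brightest the signals were 1953, 1886 and 2347 in Gata6-KO and 1899, 1646 and 980 in Gata6-WT, which overlapped (log2 0.49, adjusted p = 0.2). At the faintest tested they were 294, 291 and 284 in Gata6-KO and 207, 92.3 and 78.1 in Gata6-WT (log2 1.22, limma adjusted p = 0.034). Replicate 1 was the highest of the Gata6-WT arrays at all 3, and the last probe set's difference was 1.59 in the female-type and 0.48 in the male-type arrays. Its call was lost on leaving out any 1 of 5 arrays (all but replicate 1 of Gata6-WT), with adjusted p of 0.09 to 0.11. Without that array the brightest probe set had a log2 difference of 0.42 (adjusted p = 0.049). The mean of the 3 tested probe sets had a log2 difference of 0.69 (limma adjusted p = 0.046). Another Adam10 probe set lay under the filter and its groups overlapped. It had 13.3, 5.23 and 20.7 in Gata6-KO and 25.6, 11.9 and 14 in Gata6-WT.

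Adam8, a membrane protease of leukocytes, was the member that fell, and it had the largest change of the called members. Signals were 338, 443 and 679 in Gata6-KO replicates 1, 2 and 3, against 2379, 1509 and 2689 in Gata6-WT. The highest Gata6-KO array was below the lowest Gata6-WT array. The log2 difference was -2.15 ± 0.27 (SE, n = 3 per group; 4.44-fold lower, limma adjusted p = 0.001), and all 17 alternative fits called it, at -2.41 to -1.85. It was -1.85 in the female-type and -2.76 in the male-type arrays, with an interaction adjusted p of 1. Since neutrophils also express Adam8, their markers are given beside it. Of 7 measured neutrophil markers S100a9, Camp, Ltf and Mpo were near background, S100a8 fell to 488 ± 186 in Gata6-KO against 1111 ± 332 in Gata6-WT (SD, n = 3; adjusted p = 0.029), and Ngp and Elane were not called. Their summed signal was 567 to 941 in Gata6-KO and 1045 to 1753 in Gata6-WT arrays, and their part in the Adam8 difference was not tested.

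Adam15, an adhesion-related member of the family, had 4 tested probe sets, with log2 differences of 0.28 to 0.43, and none passed. At the brightest, signals were 3951, 5356 and 4727 in Gata6-KO and 3385, 3664 and 4484 in Gata6-WT, which overlapped (log2 0.28 ± 0.15, limma adjusted p = 0.27). At the next brightest, with 648, 720 and 725 in Gata6-KO and 532, 553 and 526 in Gata6-WT, the groups were separate (log2 0.37, adjusted p = 0.11). Of the low ADAM genes, Adam11, an ADAM without protease activity, had 117, 128 and 150 in Gata6-KO and 37.5, 107 and 8.3 in Gata6-WT (log2 1.44 ± 0.52, adjusted p = 0.12). Its other probe set lay under the filter and went the other way, with 5.73, 36.8 and 18.3 in Gata6-KO and 78.8, 87.1 and 22.8 in Gata6-WT. Adam4 had 203, 193 and 171 in Gata6-KO against 78.7, 137 and 108 in Gata6-WT (log2 0.75, adjusted p = 0.084). Adam12, Adam22, Adam23, Adam33 and Adam1a had log2 differences of 0.07 to 0.66 and adjusted p of 0.24 to 0.94.

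**Figure D3:**
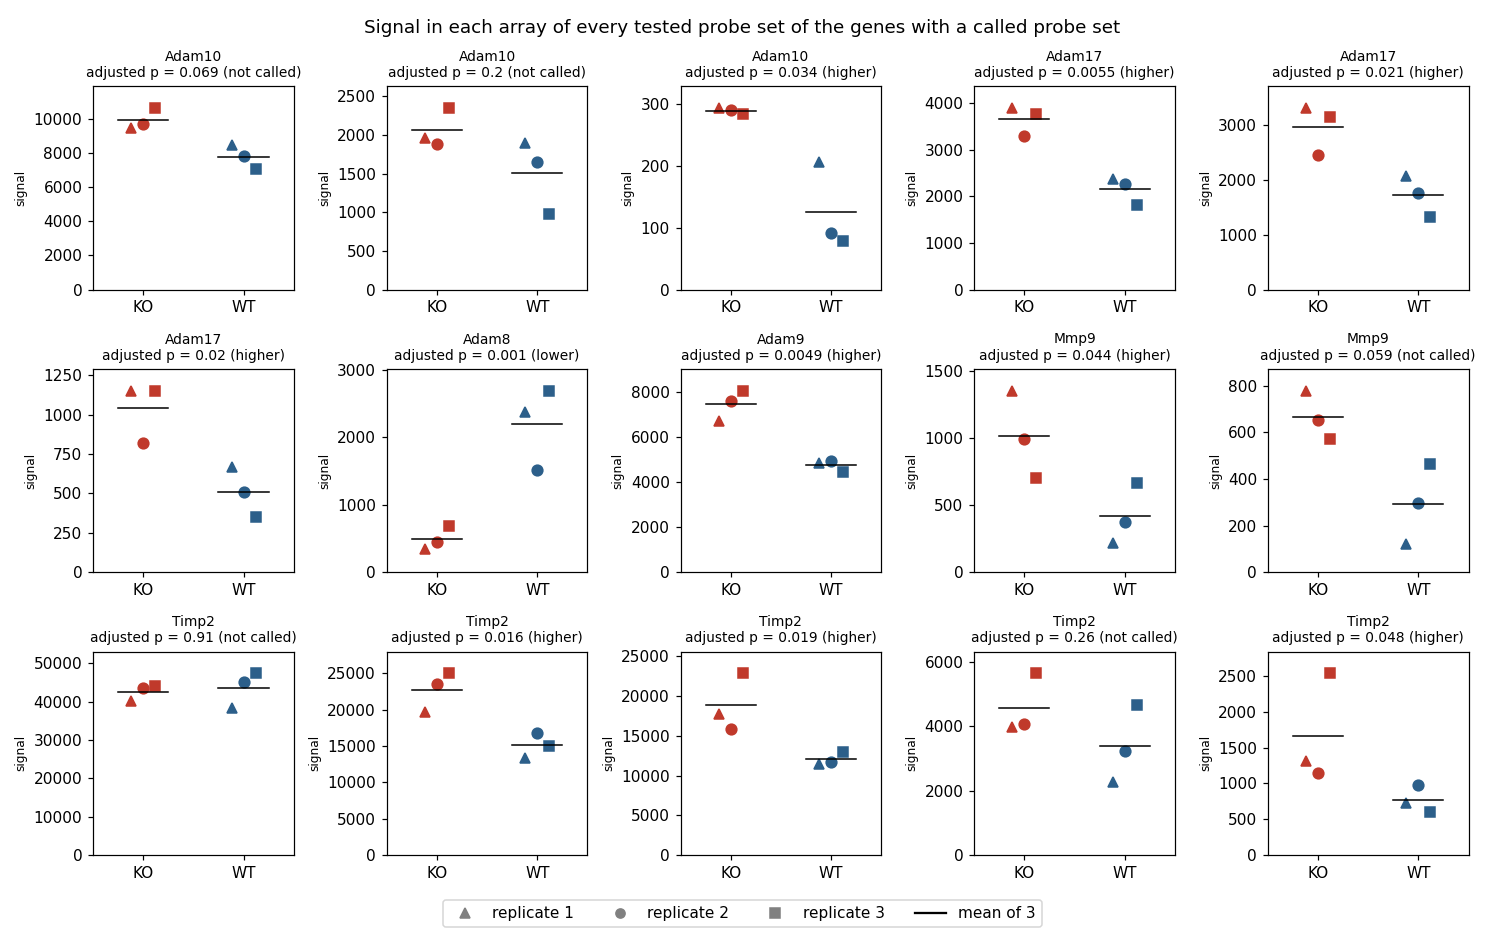
Signal (y axis, linear, from 0) in each array for the 15 tested probe sets of the 6 genes with a called probe set, Gata6-KO left of Gata6-WT. Symbols are the replicates and lines the mean of 3. The 3 Adam17 panels, Adam9 and Adam8 show separate groups, the brightest Timp2 panel overlaps, and the Mmp9 groups come closest at replicate 3 (703 in Gata6-KO, 662 in Gata6-WT).

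Mmp9, gelatinase B, was the 1 MMP gene with a clear signal, and it rose at 1 of 2 probe sets. At the brighter its signals were 1351, 990 and 703 in Gata6-KO replicates 1, 2 and 3, against 217, 375 and 662 in Gata6-WT (log2 1.33 ± 0.36 SE, n = 3 per group; 2.52-fold, limma adjusted p = 0.044). At the fainter they were 778, 651 and 570 in Gata6-KO and 120, 295 and 465 in Gata6-WT (log2 1.31, adjusted p = 0.059). In both, replicate 1 was the highest Gata6-KO and the lowest Gata6-WT array, and the groups were separate by a narrow margin. The difference was 0.72 in the female-type and 2.55 in the male-type arrays at the first probe set, and 0.69 and 2.55 at the second, with 1 male-type array per genotype. The limma interaction had an unadjusted p of 0.0084 and 0.0035, the smallest of the tested members, and an adjusted p of 1 for both. The call was kept in 7 of 17 alternative fits. Its adjusted p was 0.056 with a sex-linked term and 0.22 in replicates 2 and 3 alone. Leaving out replicate 1 or 2 of Gata6-KO gave 0.14 and 0.11, and leaving out replicate 1 or 2 of Gata6-WT gave 0.095 and 0.11. Monocytes are another source of Mmp9, and their receptor gene Ccr2 had 9632, 2401 and 1740 in Gata6-KO replicates 1, 2 and 3, against 186, 105 and 106 in Gata6-WT. Replicate 1 was the highest array of Gata6-KO for both genes, while in Gata6-WT it was the highest for Ccr2 and the lowest for Mmp9. Of the other measured monocyte markers Vcan and Cd209a fell, and the summed signal of the 3 was 1910 to 9760 in Gata6-KO and 822 to 1713 in Gata6-WT arrays. Of the neutrophil markers given with Adam8, another source, S100a8 alone was called, and the part of either cell type in the Mmp9 difference was not tested.

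The other tested MMP genes were low and none was called. Mmp14, the membrane-bound MMP that activates the precursor of MMP2, had 104 ± 17.5 in Gata6-KO and 92.8 ± 22.9 in Gata6-WT (SD, n = 3; log2 0.15, limma adjusted p = 0.79). Mmp2, gelatinase A, had 127, 100 and 108 in Gata6-KO and 39, 111 and 110 in Gata6-WT (log2 0.41, adjusted p = 0.53), where the low Gata6-WT value was replicate 1. Its log2 difference was -0.08 in the female-type and 1.38 in the male-type arrays, with 1 male-type array per genotype. Mmp19 had 157 ± 27.2 in Gata6-KO and 144 ± 62.7 in Gata6-WT at the brighter of 2 probe sets (adjusted p = 0.78). Mmp16, Mmp17 and Mmp24 had log2 differences of -0.57 to 0.03 over 4 probe sets, with adjusted p of 0.35 to 1. The brighter Mmp24 probe set had 0.68 in the female-type and -1.36 in the male-type arrays.

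None of the tested ADAMTS and ADAMTSL probe sets was called. Of these 11, 4 had a clear signal. Adamts10, which is known for a role in fibrillin microfibrils, had 404 ± 42.3 in Gata6-KO and 349 ± 97.6 in Gata6-WT (SD, n = 3; log2 0.23, limma adjusted p = 0.55). The brighter Adamts16 probe set had 284 ± 47 and 298 ± 92.3 (adjusted p = 0.96). The 2 Adamtsl5 probe sets had differences of opposite sign, 0.25 and -0.28, and Adamtsl4 had 168 ± 28.9 in Gata6-KO and 193 ± 61.1 in Gata6-WT (adjusted p = 0.75). The aggrecan-cleaving Adamts5 was low, with log2 differences of 0.25 and -0.3 at its 2 tested probe sets, and so were Adamts9, with 0.26 and -0.52, and Adamts15, with 0.42. The fainter of these Adamts9 probe sets had -1.32 in the female-type and 1.06 in the male-type arrays, with 1 male-type array per genotype.

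Among the inhibitors, Timp2 had high signals in both genotypes, and its probe sets differed in what they showed. TIMP2 inhibits MMPs and also takes part in activating the MMP2 precursor on the cell surface. The brightest probe set had 40102, 43693 and 43986 in Gata6-KO replicates 1, 2 and 3 and 38238, 45184 and 47404 in Gata6-WT, with overlapping groups (log2 -0.03 ± 0.11 SE, n = 3 per group; limma adjusted p = 0.91). At the second brightest, signals were 19741, 23609 and 25010 in Gata6-KO, against 13416, 16776 and 15049 in Gata6-WT (log2 0.59 ± 0.13, adjusted p = 0.016). At the third brightest they were 17798, 15901 and 22852 in Gata6-KO and 11460, 11658 and 12961 in Gata6-WT (log2 0.63, adjusted p = 0.019). Both had separate groups, and a change near 1.5-fold.

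The fainter tested Timp2 probe sets also had positive differences. A further probe set lay under the filter and its groups overlapped, with 37, 24.5 and 9.3 in Gata6-KO and 55.3, 34.5 and 4.39 in Gata6-WT. The fourth brightest had 3964, 4068 and 5646 in Gata6-KO and 2261, 3235 and 4659 in Gata6-WT, which overlapped (log2 0.47, adjusted p = 0.26). At the fifth, signals were 1305, 1148 and 2535 in Gata6-KO and 728, 982 and 604 in Gata6-WT (log2 1.03, adjusted p = 0.048), with Gata6-KO replicate 3 far above the other arrays. This call was kept in 5 of 17 alternative fits, and without that array the difference was 0.68 (adjusted p = 0.095). It was also lost when replicate 1 of Gata6-KO (0.067) or any 1 Gata6-WT array (0.053 to 0.14) was left out. The call of the second brightest was lost on leaving out replicate 2 (0.068) or 3 (0.066) of Gata6-KO, and that of the third brightest on leaving out replicate 2 of Gata6-WT (0.071). The positions of these probe sets along the transcript are not known here. By the rule that takes the probe set of highest mean Timp2 was not called. By the mean of its 5 tested probe sets it rose (log2 0.54, limma adjusted p = 0.046).

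Timp1, Timp3 and Timp4 were low in both genotypes and none was called. Timp1, the TIMP that is induced in inflammation, had 71.7, 35.4 and 76.4 in Gata6-KO and 61.4, 98.1 and 51.1 in Gata6-WT (log2 -0.17 ± 0.37 SE, n = 3 per group; limma adjusted p = 0.83). Timp3, which binds to matrix and inhibits ADAM17, had 57.3 ± 3.37 in Gata6-KO and 63.3 ± 20.5 in Gata6-WT (SD; adjusted p = 0.91). Timp4 had 85.4 ± 33.9 in Gata6-KO and 114 ± 67.3 in Gata6-WT (adjusted p = 0.8). The within-group SD of log2 values had a median of 0.43 over the 26 low members, 0.32 over the 22 clear ones and 0.25 over all tested probe sets.

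**Figure D4:**
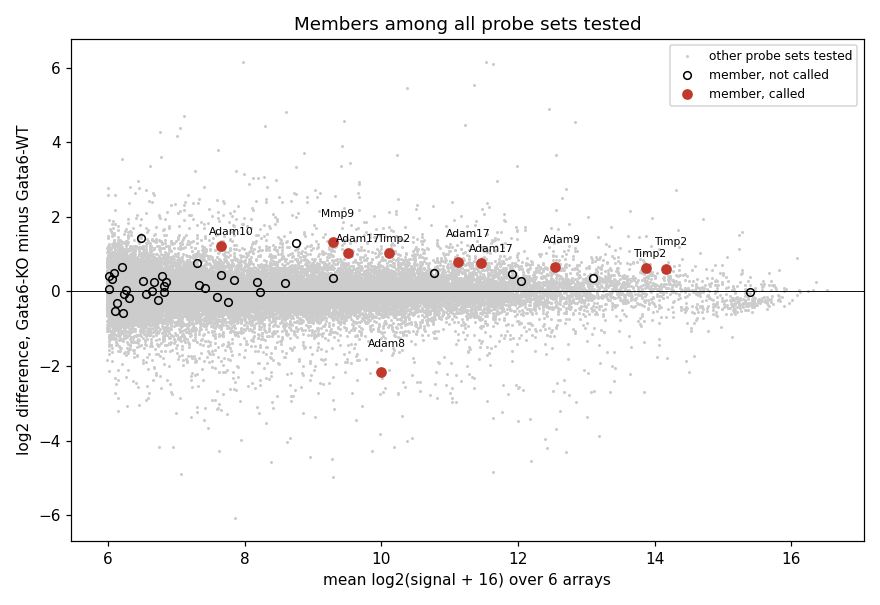
Log2 difference of Gata6-KO minus Gata6-WT (y axis) against the mean log2(signal + 16) over 6 arrays (x axis) for all 27022 tested probe sets in grey, with the 48 member probe sets as circles and the 10 called ones filled and named. The called members above 0 have log2 differences of 0.59 to 1.33, and Adam8 stands apart at -2.15.

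Partners of these enzymes were taken from lists made from textbook knowledge, whose counts stand against 5.61% of all genes higher and 7.46% lower. Of 24 tested inhibitors, activators and partners 1 rose and 2 fell, near that background, with a median log2 difference of 0.04, where that of all genes was -0.04. The tetraspanin Tspan14, which accompanies ADAM10 to the cell surface, had 7706, 7841 and 7952 in Gata6-KO and 5286, 5265 and 6705 in Gata6-WT (log2 0.45, limma adjusted p = 0.038). Serpinb2, the inhibitor of plasminogen activators, fell to 6005 ± 1973 in Gata6-KO, against 37629 ± 2150 in Gata6-WT (SD, n = 3; log2 -2.7, adjusted p = 8.1e-05). Bsg, basigin, an inducer of MMPs, fell by 0.71 on the log2 scale (adjusted p = 0.0043). The iRhom gene Rhbdf2, whose product carries ADAM17 to the cell surface, had 482, 533 and 593 in Gata6-KO and 615, 595 and 963 in Gata6-WT (adjusted p = 0.25). Its groups did not overlap, as in 31% of all tested probe sets. Several other uncalled genes of the list had separate groups too, among them Furin, which was higher in Gata6-KO (adjusted p = 0.23). Rhbdf1 and Frmd8 overlapped and were not called. Of 16 tested genes on a list of other metallopeptidases 0 rose, with a median of -0.06. The carboxypeptidase gene Cpd was the 1 that fell (897 ± 17.9 in Gata6-KO, 1473 ± 83.9 in Gata6-WT, SD, n = 3). The list also held Adgb, androglobin, which is not a metallopeptidase (log2 -0.98, limma adjusted p = 0.082).

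Genes for known substrates moved in both directions. Of 31 tested membrane proteins that ADAM proteases shed, 6 rose and 4 fell, with a median log2 difference of 0.12, where 5.61% of all genes were higher and 7.46% lower. Large changes were those of the haemoglobin receptor Cd163, a substrate of ADAM17, at 5.46, and of the growth factor genes Csf1 at -2.04 and Kitl at 1.88. Vldlr was called higher as well, with 103, 232 and 105 in Gata6-KO and 2.59, 46.5 and 39 in Gata6-WT. All 3 Gata6-WT signals were under the filter value of 47.5, so the size of its change is not well determined. Notch1, whose product is cut by ADAM10, fell to 980 ± 15.6 in Gata6-KO, against 2492 ± 573 in Gata6-WT (SD, n = 3; limma adjusted p = 0.00086), and Tnf was near background in both genotypes. Of 16 tested genes on a list of matrix proteins cut by MMP or ADAMTS proteases 0 rose and 5 fell, against the same shares of all genes, with a median of -0.17. The list also held the growth factor genes Tgfb1 and Tgfb2. A further 19 were near background, 6 collagen genes among them. The 5 that fell were Vcan, Ltbp1 (log2 -4.56), Thbs1 (-2.71), Tgfb2 (-2.01) and Lamc1 (-1). Vcan encodes versican, a substrate of ADAMTS proteases, and had 26.8, 44.7 and 11.2 in Gata6-KO, against 418, 295 and 435 in Gata6-WT. Its Gata6-KO signals were all under the filter value, so no exact size is given for its fall.

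Stromal cells are known producers of MMPs and TIMPs, and their markers were low throughout. Of 6 fibroblast markers Col1a1, Col3a1, Dcn, Pdgfra and Lum were near background, the remaining one was not called, and their summed signal was 200 to 368 in Gata6-KO and 279 to 399 in Gata6-WT arrays. Of 5 mesothelial markers Msln, Upk3b, Krt19 and Wt1 were near background, with sums of 141 to 182 in Gata6-KO and 129 to 193 in Gata6-WT. All 5 eosinophil markers were near background. None of the tested markers of mast cells, B cells, T or NK cells, dendritic cells, endothelium or epithelium was called. The 2 tested mast cell markers were lower in Gata6-KO without overlap. Cpa3 had 159 ± 42.4 against 280 ± 27.6 and Cma1 79.5 ± 50 against 198 ± 48.9 (SD, n = 3, limma adjusted p = 0.051 and 0.083). Groups did not overlap in 31% of all tested probe sets. Summed signals were 326 to 494 in Gata6-KO and 510 to 610 in Gata6-WT for mast cells. For T or NK cells they were 123 to 216 and 223 to 336. The sums of eosinophils, B cells, dendritic cells, endothelium and epithelium overlapped. Those of monocytes and neutrophils, given above, did not. Nor did that of the resident macrophage markers, at 147538 to 150802 in Gata6-KO and 180380 to 204437 in Gata6-WT.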

How the data were processed

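The deposited values are linear intensities, 1 signal per probe set and array. The submitters' processing notes name MAS5 and affy, without versions. On each array the mean was 500 once the top and bottom 2% of probe sets were dropped, so the deposited intensities were already scaled. Low signals are noisy, and detection calls were not used. The number of arrays limits the precision. No pair of arrays held identical values. The array annotation gave 1 symbol for 34958 probe sets, several for 932 and none here for 9211; 5 probe sets naming a member beside another gene were left out.

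Signals were taken as log2(signal + 16), without the 64 control probe sets, and tested with limma 3.58.1 in R 4.3.3 (two-sided, eBayes with trend, Benjamini-Hochberg over all 27022). Fold changes understate those of low signals. The fit was tested on simulated data. Members, lists and the rule for named genes (every called member gene, a list of well-known members and up to 4 called genes of each partner list) were chosen with earlier results of these data known. Notch1, Lamc1, Tnf, Rhbdf1, Rhbdf2, Frmd8, Furin, Adam4 and Adam11 were named after their values were seen. Promoter windows were RefSeq's of GRCm38.p6. Figures used matplotlib 3.10.9 in Python 3.11.15.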

Additional observations from a re-analysis of the deposited data

How the results depend on the processing

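The fit was varied in pseudocount, filter, normalization, trend, array weights, replicate block, sex-linked term and arrays used. In 17 alternative fits Adam17, Adam9 and Adam8 were called each time at their brightest probe set, and Mmp9 kept its sign. The 10 called member probe sets became 3 without the trend, 3 at an adjusted p under 0.01, 5 at a change of at least 2-fold, and 5 to 9 with 1 array left out. The 4 called member genes became 2 at 2-fold (Adam8 and Mmp9). All called probe sets, 2916, became 1459 without the trend, 1615 in replicates 2 and 3 alone, 1251 at 0.01, 1256 at 2-fold, and 1851 to 2465 with 1 array left out. A clear class from a signal of 100 or 400 held 29 or 16 probe sets, against 22. Timp2, at log2 -0.03, was called at 0.54 (limma adjusted p = 0.046) as the mean of its 5 tested probe sets. The mean of tested probe sets also called Adam10 (0.69). Replicate numbers were not taken to pair the arrays: same-numbered deviations correlated at 0.13, 0.07 and 0.07, each array's highest. With the replicate block 8 member probe sets and 3076 of all were called, and Mmp9 had an adjusted p of 0.063. Median scaling moved the share of higher among all calls to 40.6%, against 47.5%. Low signals limit what can be seen for the 40 genes near background.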
